A study of Mus musculus with 6 samples.

Results

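Iron storage, uptake and export were examined through 10 genes in cultured enteric glial cells (EGCs), which support the neurons of the intestine, with and without lipopolysaccharide (LPS, a component of the bacterial outer membrane). The genes were taken by name from the 46603 genes of the count files. They encode the ferritin subunits (Fth1, Ftl1), the transferrin receptor (Tfrc), metal transporters (Slc11a1, Slc11a2), metalloreductases (Steap3, Steap4), the iron exporter ferroportin (Slc40a1), the ferroxidase ceruloplasmin (Cp) and the hormone hepcidin (Hamp). Each name matched 1 gene.

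Poly(A) RNA had been sequenced from 6 libraries. All cells were grown from neurospheres prepared from whole intestine of C57BL/6J embryos at embryonic day 14.5 and were then cultured on coated plates with serum until confluent. The control libraries (n = 3) received no LPS, and the LPS libraries (n = 3) received 100 ng/ml for 12 h. The cells were outgrowths of whole intestine and no sorting step was described. The labels did not say whether replicates were separate cultures or litters, so p-values measure only the spread between these libraries.

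Library totals lay between 18775316 and 23664312 counts. Levels are given as counts per 1000000 counts (CPM) on library sizes corrected for composition. Among the glial markers, Sox10, the transcription factor that defines the lineage, was at 73.8 to 101 CPM in control and 75.9 to 78.2 CPM in LPS libraries, with overlapping groups. Erbb3 was at 60.9 to 84.1 CPM and 56.7 to 62.9 CPM, and Gfap at 3.26 to 5.66 CPM and 2.23 to 7.22 CPM, so each was detected in all libraries. S100b fell with LPS, from 20.5 to 24.7 CPM in control to 3.46 to 9.37 CPM. Mesenchymal markers summed to 15500 to 16122 CPM in control and 15085 to 15730 CPM in LPS libraries, most of it from 3 collagen genes. Of the 7 mesenchymal markers, Dcn (log2 fold change 0.90, edgeR adjusted p = 0.0118) and Pdgfra (0.50, adjusted p = 0.0114) rose, while Lum had a value of -0.73 (adjusted p = 0.0775) and was called lower with the replicate block. The 6 smooth muscle markers all fell with LPS, and their sum was 2266 to 2492 CPM in control and 634 to 900.3 CPM in LPS libraries. The part of these cells in the differences below was not tested. Replicate 3 stood apart in both groups. Its 12 macrophage (Mφ) markers summed to 12144 CPM in control and 19658 CPM in LPS, against 3982 to 5165 CPM in the other 4 libraries. Each member is therefore also given without both replicate 3 libraries, an alternative chosen after the data were seen.

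Cells take up transferrin-bound iron through the transferrin receptor, reduce it in the endosome, and move it into the cytosol through a divalent metal transporter. Surplus iron is stored inside the shell of ferritin, in which heavy chains oxidise iron and light chains help to form the mineral core. Ferroportin carries iron out of the cell, aided by a ferroxidase, and hepcidin closes this route by triggering the degradation of ferroportin. In inflammation, cells commonly hold iron back, which limits its supply to bacteria. Iron regulatory proteins bind a short hairpin, the iron-responsive element, in several of these mRNAs. In the 5′ untranslated region (UTR) it restrains translation, and in the 3′ UTR of Tfrc it protects the mRNA from decay.

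These hairpins are shown because they are a sequence element of both iron storage and iron uptake genes. A search for a CAGTGN loop on a stem of 5 base pairs, with a C 6 bases before the loop, found 7 matches in 4 of the 10 members. The sense strand is printed 5′ to 3′ as DNA from the GENCODE M21 transcripts of GRCm38, with the loop in capitals. The matches lay in the 5′ UTR of Fth1 (chr19:9982733-9982759, plus strand), Ftl1 (chr7:45459780-45459806, minus strand) and Slc40a1 (chr1:45925466-45925492, minus strand), and at 4 places in the 3′ UTR of Tfrc on the plus strand (chr16:32631220-32631246, chr16:32631599-32631625, chr16:32631664-32631690 and chr16:32631711-32631737).
Fth1 5′ UTR: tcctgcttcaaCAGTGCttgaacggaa
Ftl1 5′ UTR: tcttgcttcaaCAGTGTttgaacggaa
Slc40a1 5′ UTR: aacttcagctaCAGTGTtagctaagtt
Tfrc 3′ UTR, first: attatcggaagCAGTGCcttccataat
Tfrc 3′ UTR, next: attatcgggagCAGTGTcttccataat
Tfrc 3′ UTR, next: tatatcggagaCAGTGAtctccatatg
Tfrc 3′ UTR, last: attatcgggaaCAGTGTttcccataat
Over all genes with an annotated UTR, the same search matched 0.148% for the 5′ UTR and 0.594% for the 3′ UTR. The pattern allows no further bulge and so misses less regular elements, such as the one known from the 3′ UTR of an Slc11a2 transcript. A match is a description of the sequence and was not measured as a bound site. The 4 members with a match did not move in one direction with LPS, as their values below show.

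With LPS, 5 members rose (Fth1, Slc11a1, Slc11a2, Cp and Steap4) and 3 fell (Slc40a1, Steap3 and Tfrc). Ftl1 did not pass the test, and Hamp was too low to be tested. The test was the edgeR quasi-likelihood F-test over 15226 genes, with a gene called at a Benjamini-Hochberg adjusted p under 0.05. Of all genes tested, 9.09% were called higher and 6.71% lower. All 5 rising members had every LPS library above every control library, and all 3 falling members had every LPS library below, as held for 19.3% and 19.4% of all genes tested. With the replicate number as a block, the same 5 and 3 members were called, against a background of 15.4% higher and 14.9% lower. Without both replicate 3 libraries the count was again 5 higher and 3 lower, in a fit that called 22.6% of all genes higher and 20.4% lower. Leaving out a single library removed between 0 and 5 of these calls, and the libraries that did so are named with each gene.

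**Figure D1:**
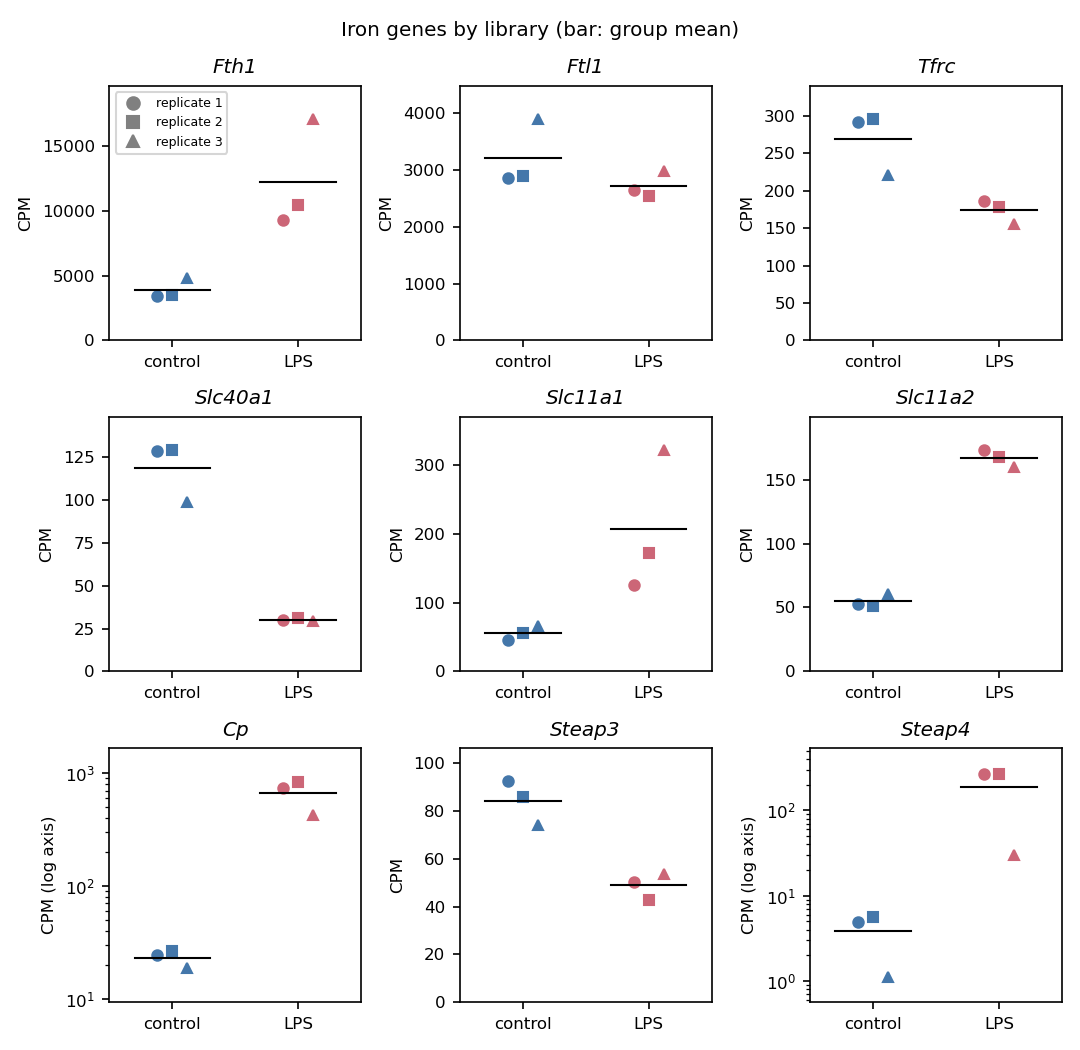
Level of each of the 9 tested members in CPM (vertical axis, linear except for Cp and Steap4, which have log axes) in 3 control and 3 LPS libraries, with the marker shape giving the replicate number and the bar the group mean. The groups are separate for every member but Ftl1, and LPS replicate 3 is the highest point for Fth1 and Slc11a1 and the lowest LPS point for Cp and Steap4.

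Fth1 (chr19:9980598-9985098, plus strand), the ferritin heavy chain, was measured at 3422, 3490 and 4804 CPM in the control libraries and at 9284, 10416 and 17075 CPM in the LPS libraries. It rose in every LPS library, most in replicate 3, and, by CPM without correction for length, moved from the 11th highest of all tested genes in control to the highest in LPS. The log2 fold change was 1.65 (SE 0.29, edgeR adjusted p = 0.0186), and 1.53 without replicate 3. The call was lost without control replicate 1 (adjusted p = 0.0864), control replicate 2 (0.0988) or LPS replicate 2 (0.0601), within a range of 7.19e-07 to 0.0988 over 14 alternatives. In all of these fits the log2 fold change stayed between 1.33 and 1.84.

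Ftl1 (chr7:45457944-45459884, minus strand), the ferritin light chain, stood at 2866, 2892 and 3892 CPM in control and 2652, 2536 and 2981 CPM in LPS libraries. The groups overlapped, since LPS replicate 3 lay above control replicates 1 and 2. Its log2 fold change was -0.24 (SE 0.16, edgeR adjusted p = 0.359), and it was called under none of 14 alternatives (adjusted p 0.0942 to 0.734). Without replicate 3 the value was -0.13, also not called. Within each replicate number the LPS library was lower, by a log2 difference of -0.11, -0.19 and -0.38. The Ftl1 count is uncertain: 50.9% of the 50-base words in its transcripts also occur in 15 other genes, mostly pseudogenes such as Gm10116 (372 counts in all libraries), Gm15590 (68 counts) and Ftl2 (6 counts). Those 15 genes held 473 counts, or 0.123% of the number given to Ftl1. For Fth1, 1.59% of words were shared, with Gm6977 alone (98 counts).

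Since both chains were counted in the same libraries, their ratio compares the heavy with the light subunit free of library size. The ratio of Fth1 to Ftl1 counts was 1.19, 1.21 and 1.23 in control and 3.50, 4.11 and 5.73 in LPS libraries. The control libraries agreed closely and every LPS library was higher, with replicate 3 the highest. The log2 ratio differed by 1.84, or 3.59-fold, and the exact two-sided permutation p of 0.1 is the smallest that 3 against 3 libraries can give. Without replicate 3 the log2 difference was 1.66.

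The share of all counts taken by ferritin was higher in every LPS library. Fth1 and Ftl1 together took 0.679%, 0.677% and 0.889% of counts in control and 1.16%, 1.24% and 1.84% in LPS libraries. The groups did not overlap, and the difference of 0.66 percentage points had an exact two-sided permutation p of 0.1, again the smallest possible. Without replicate 3 the difference was 0.52 points. Fth1 alone accounted for the higher share, going from 0.370% to 0.491% of counts in control to 0.899% to 1.57% in LPS, while Ftl1 held 0.307% to 0.398% and then 0.242% to 0.273%. On this share of raw counts the Ftl1 groups did not overlap, whereas on library sizes corrected for composition they did.

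**Figure D2:**
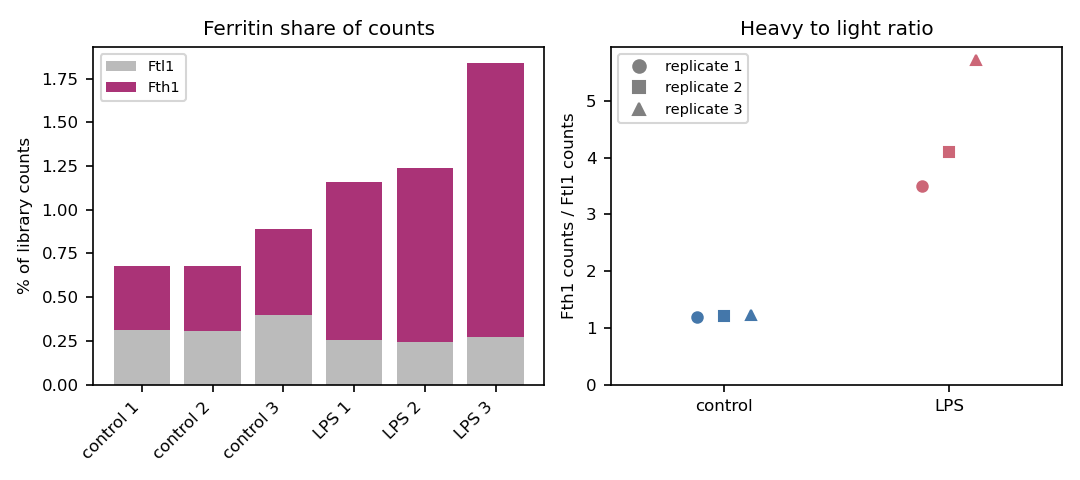
Left, the share of each library's counts (percent) assigned to Ftl1 (grey) and Fth1 (purple), stacked; right, the ratio of Fth1 to Ftl1 counts per library, with the marker shape giving the replicate number. The Ftl1 part is lower in the LPS libraries (0.242% to 0.273% against 0.307% to 0.398%), while the Fth1 part and the ratio are higher in all 3 LPS libraries (3.50 to 5.73 against 1.19 to 1.23).

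Which chain was the more abundant in control depended on the length by which counts were divided. Per kilobase of all annotated exons the control ratio was 0.461 to 0.477 and the LPS ratio 1.35 to 2.21, so that light exceeded heavy in control. With the length of the first listed transcript of each gene (929 bases for Fth1 and 968 bases for Ftl1), an alternative added after seeing the data, the ratios were 1.24 to 1.29 and 3.65 to 5.97. As counted, heavy exceeded light in LPS libraries on either length, and the change between groups was the same. The handling of reads with several alignments was not given, so the uncertainty of the Ftl1 count applies to both ratios.

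Tfrc (chr16:32608920-32632794, plus strand), which encodes the receptor for iron-loaded transferrin, was at 291, 295 and 221 CPM in control and 187, 178 and 156 CPM in LPS libraries. Every LPS library lay below every control library, and replicate 3 was the lowest of each group. The log2 fold change was -0.63 (SE 0.14, edgeR adjusted p = 0.0359), a modest fall, and -0.66 without replicate 3. The call was lost when any one of 5 libraries was left out: control replicate 1 (adjusted p = 0.126), control replicate 2 (0.142), LPS replicate 1 (0.0885), LPS replicate 2 (0.119) or LPS replicate 3 (0.0517). The adjusted p ran from 0.0016 to 0.142 over the 14 alternatives.

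Steap3 (chr1:120190757-120272705, minus strand), the endosomal ferrireductase of the transferrin route, was at 92.3, 85.5 and 74.1 CPM in control and 50.2, 42.7 and 53.4 CPM in LPS libraries. It fell along with Tfrc, with no overlap between groups. Its log2 fold change was -0.78 (SE 0.12, edgeR adjusted p = 0.0139), and -0.91 without replicate 3. The call was lost without any one of LPS replicate 1 (adjusted p = 0.0559), LPS replicate 2 (0.0538), control replicate 1 (0.059) and control replicate 2 (0.0743), in a range of 5.16e-06 to 0.0743 over the alternatives.

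Slc11a2 (chr15:100387898-100425072, minus strand) encodes DMT1, which moves ferrous iron across the endosomal and plasma membranes. Its level was 52.7, 51.4 and 60.2 CPM in control and 173, 168 and 159.5 CPM in LPS libraries. The 3 LPS libraries lay close together and well above control, in contrast to the fall of Tfrc and Steap3 in the same route. The log2 fold change was 1.61 (SE 0.09, edgeR adjusted p = 0.000417) and was called under all 14 alternatives (adjusted p 6.52e-45 to 0.00793). Without replicate 3 it was 1.73.

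Steap4 (chr5:7960457-7982213, plus strand), a metalloreductase of the plasma and endosomal membranes that acts on iron and copper, was among the lowest members in control at 4.92, 5.62 and 1.12 CPM. In LPS libraries it reached 269.8 and 266 CPM in replicates 1 and 2 but 30.3 CPM in replicate 3. Replicate 3 was thus the lowest library of each group, and even its LPS value lay above all control values. The log2 fold change was 5.60 (SE 1.07, edgeR adjusted p = 0.0235), and within replicates 1, 2 and 3 the log2 difference was 5.78, 5.56 and 4.76. It was 5.69 without replicate 3. The group fit lost the call without any one of LPS replicate 1 (adjusted p = 0.0695), LPS replicate 2 (0.0798), control replicate 1 (0.0949) and control replicate 2 (0.100) and with limma-voom (0.0917), in a range of 6.70e-10 to 0.100 over 14 alternatives.

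Slc40a1 (chr1:45908068-45926523, minus strand), encoding the iron exporter ferroportin, was at 129, 129 and 99.1 CPM in control and 30.05, 31.3 and 29.2 CPM in LPS libraries. The LPS libraries were nearly equal, and this was the deepest fall of any member. Its log2 fold change was -1.98 (SE 0.12, edgeR adjusted p = 0.000684), 3.94-fold lower, and it ranked 163rd from the bottom of the 15226 fold changes. The call held under all 14 alternatives (log2 fold change -2.14 to -1.91) and the value was -2.05 without replicate 3.

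Cp (chr3:19957054-20009145, plus strand), the copper-bearing ferroxidase that oxidises iron leaving through ferroportin, went the other way. It was measured at 24.2, 26.3 and 18.5 CPM in control and at 737, 837 and 425 CPM in LPS libraries. Every LPS library was far above control, with replicate 3 the lowest of each group. The log2 fold change was 4.86 (SE 0.32, edgeR adjusted p = 0.000878), 29.0-fold higher, and 4.99 without replicate 3. It was called under all 14 alternatives, with log2 fold changes between 4.66 and 5.09. Cp overlaps the gene Hps3 on the opposite strand by 108 bases, and Hps3 held 3965 counts in all libraries.

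Ceruloplasmin is a product of the liver as well as of glia. Of 5 hepatocyte markers, 4 were tested and none was called. The 5 summed to 21.7 to 72.9 CPM in control and 27.6 to 86.7 CPM in LPS libraries, with Alb and Afp, at 14.3 to 52.7 CPM and 5.54 to 29.8 CPM in all libraries, the most abundant. These sums overlapped between groups. Within replicates 1, 2 and 3 the LPS sum was the higher (86.7 against 72.9, 51.9 against 47.2 and 27.6 against 21.7 CPM). The part of hepatocytes in the Cp values was not tested. All 5 erythroid markers were too low to be tested, with sums of at most 0.551 CPM and no count of either globin gene listed.

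The promoters of Steap4 and Cp are shown because these members rose most. They are the 250 bases before an annotated start in RefSeq (GRCm38.p6), on the plus strand at chr5:7960222-7960471 and chr3:19956999-19957248, with motif matches in capitals. The motifs, chosen after the data were seen, were GGGNNNNNCC for NF-kB, TTCNNNGAA for STAT, TTGCNNAA for C/EBP, TGACNNNGC for the antioxidant response element and an interferon regulatory factor motif, all on both strands.
Steap4 promoter: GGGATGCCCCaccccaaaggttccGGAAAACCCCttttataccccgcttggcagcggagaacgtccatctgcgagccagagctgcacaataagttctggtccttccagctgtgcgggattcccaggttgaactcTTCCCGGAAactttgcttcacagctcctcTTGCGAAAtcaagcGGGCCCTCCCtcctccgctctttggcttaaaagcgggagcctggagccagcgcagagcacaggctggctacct
Cp promoter: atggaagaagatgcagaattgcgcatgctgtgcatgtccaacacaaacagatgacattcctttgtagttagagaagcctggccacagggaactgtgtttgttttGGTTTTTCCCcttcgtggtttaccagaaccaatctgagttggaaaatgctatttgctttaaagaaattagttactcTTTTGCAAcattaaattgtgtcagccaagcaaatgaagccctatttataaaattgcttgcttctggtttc
The Steap4 window held 3 NF-kB matches (first bases at -250, -226 and -73 from the start), 1 STAT match (-116) and 1 C/EBP match (-87), and the Cp window held an NF-kB match (-146) and a C/EBP match (-70). Another annotated start of Cp held none of the 5 motifs. Promoters were found for 8 of the 10 members, with 14 windows in all since some members have several starts. Of these 14 windows, 10 held an NF-kB match, 4 a C/EBP match and 2 a STAT match (in Hamp and Steap4), while 0 held the antioxidant response element or the interferon regulatory factor motif. Of 32851 windows of the same length, 45.8% held an NF-kB match, 9.56% a C/EBP match, 7.02% a STAT match, 10.2% the antioxidant response element and 2.98% the interferon regulatory factor motif. The NF-kB matches of the members include those of Tfrc and Steap3, which fell, and of Ftl1. The C/EBP matches were in Cp, Fth1 and Steap4, which rose, and in Steap3, which fell.

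Slc11a1 (chr1:74375195-74386062, plus strand) encodes NRAMP1, which pumps metal ions out of the phagosome and is best known from Mφs. It was at 45.8, 55.6 and 65.5 CPM in control and 126, 173 and 322 CPM in LPS libraries. The groups did not overlap, and replicate 3 was the highest of each. The log2 fold change was 1.89 (SE 0.37, edgeR adjusted p = 0.0248), and 1.58 without replicate 3. It was not called without control replicate 1 (adjusted p = 0.1), control replicate 2 (0.112) or LPS replicate 2 (0.0737), in a range of 1.17e-05 to 0.112 over the alternatives.

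Markers of Mφs were present in every library, and all 12 passed the filter. Their summed level was 3987, 5146 and 12144 CPM in control and 3982, 5165 and 19658 CPM in LPS libraries. Without Lyz2, which supplies most of the sum, the 11 others summed to 1099, 1656 and 4166 CPM in control and 1598, 2096 and 8178 CPM in LPS libraries. Without Adgre1 as well, left out after the values were seen, the remaining 10 summed to 940.2, 1426 and 3694 CPM in control and 645, 835 and 4478 CPM in LPS libraries. With LPS the sum of the 11 was higher within every replicate number. The sum of the 10 was lower in replicates 1 and 2 and higher in replicate 3. The direction in replicates 1 and 2 thus depended on leaving out Adgre1, the marker that the group fit called higher. The log2 difference of Slc11a1 within replicates 1, 2 and 3 was 1.46, 1.64 and 2.30. Of the 12 markers, Adgre1 was called higher (159, 229 and 472 CPM in control; 952, 1261 and 3700 CPM in LPS) and none lower. The fit with a replicate block called 4 of them higher and 4 lower. Those higher were Adgre1 (log2 fold change 2.67), Aif1 (2.55), Fcgr1 (1.85) and Ptprc (0.76). Those lower were Mrc1 (log2 fold change -3.92), Cx3cr1 (-3.16), Cd68 (-0.86) and Tyrobp (-0.60). Aif1 was at 3.56 to 10.5 CPM in control and 14.0 to 139 CPM in LPS libraries, with no overlap. Mrc1 was at 197 to 752 CPM in control and 9.29 to 131 CPM in LPS libraries, also with no overlap. The markers thus did not move in one direction. None was at 0 in any library. The part of Mφs in the Slc11a1 and Fth1 values was not tested. In RNA from whole cultures, fewer cells of a type and less RNA per cell cannot be told apart.

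**Figure D3:**
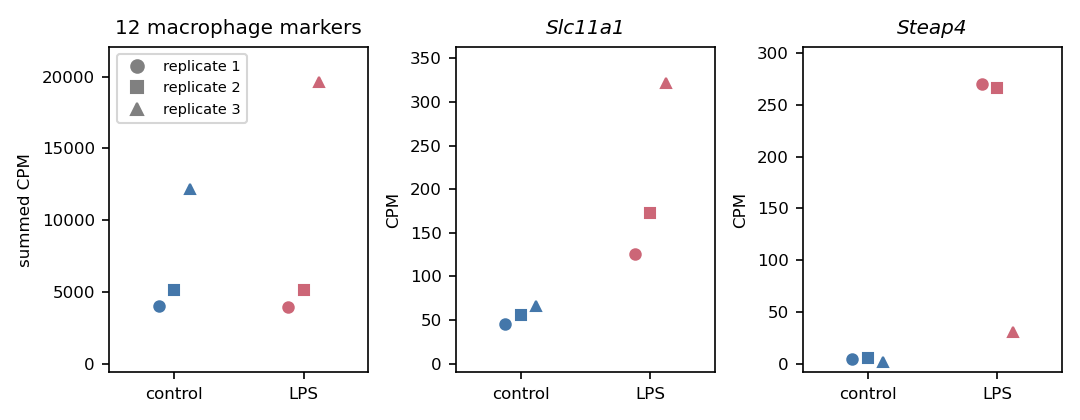
Summed level of 12 macrophage markers, and levels of Slc11a1 and Steap4, in CPM (vertical axes) for 3 control and 3 LPS libraries, with the marker shape giving the replicate number. The marker sum is highest in replicate 3 of both groups (12144 and 19658 CPM), while LPS replicate 3 is the highest library for Slc11a1 and the lowest LPS library for Steap4.

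Hamp (chr7:30942368-30944032, minus strand), encoding hepcidin, had 1, 1 and 0 counts in control and 0 counts in every LPS library. A count of 3, taken as the detection floor, corresponds to 0.124 to 0.167 CPM, so a level up to that value could not be detected. No fold change is given for Hamp. It entered only the alternative fit with no filter, where it was not called. The neighbouring copy Hamp2, which shares 16.6% of the 50-base words of Hamp, had no counts.

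**Figure D4:**
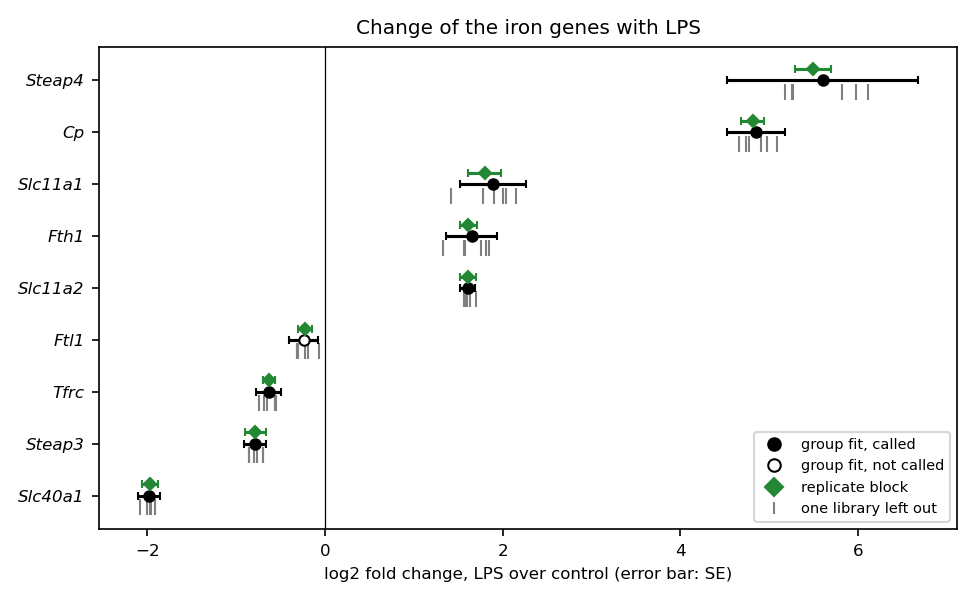
Log2 fold change of LPS over control (horizontal axis) for the 9 tested members, with circles for the group fit (filled where called), green diamonds for the fit with a replicate block, bars for the SE, and grey ticks for fits with 1 library left out. Steap4 and Cp lie furthest to the right and Slc40a1 furthest to the left, and no left-out library moves a member across zero.

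Levels were compared between members per kilobase of annotated exon. The place of Ftl1 beside Fth1 rests on an uncertain Ftl1 count, as given above. In control the order of the mean was Ftl1 (2400.4 CPM per kilobase), Fth1 (1126), Tfrc (43.5), Slc11a1 (15.03), Steap3 (14.7), Slc40a1 (13.2), Slc11a2 (8.62), Cp (2.41) and Steap4 (1.23). The ranges of Slc11a1, Steap3 and Slc40a1 overlapped, and those of all other neighbours did not. In LPS libraries the order became Fth1 (3534), Ftl1 (2032), Cp (69.7), Steap4 (59.8), Slc11a1 (55.9), Tfrc (28.1), Slc11a2 (26.3), Steap3 (8.54) and Slc40a1 (3.35). The range of Steap4 (9.61 to 85.5) overlapped those of Cp, Slc11a1, Tfrc and Slc11a2 there, since its replicate 3 value lay below every value of these genes. Cp also overlapped Slc11a1, and Tfrc overlapped Slc11a2. Ferroportin became the lowest tested member, and the ferroxidase Cp rose to the highest after ferritin. With the length of the first listed transcript, Slc40a1 (35.3 CPM per kilobase) stood above Steap3 (28.7) and Slc11a1 (24.1) in control, and it was the lowest tested member in LPS libraries there too (8.95). On that length the LPS order also changed, with Slc11a1 (89.4) above Steap4 (59.8) and Slc11a2 (55.2) above Tfrc (35.5).

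Around these members, 45 other genes of iron and heme handling were looked up, of which 39 passed the filter. The edgeR test called 8 of them higher and 2 lower and left 29 uncalled, beside the background of 9.09% and 6.71%. Heme was the longest list, with 4 of 12 tested genes called higher and none lower. With the replicate block, 6 heme genes were called higher and 2 lower. Over all 39 genes the block called 13 higher and 8 lower, beside 15.4% and 14.9% of all genes. Without both replicate 3 libraries, 15 of the 39 were called higher and 10 lower, beside 22.6% and 20.4%. Roles were not compared by a test.

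Among the heme genes, Hmox1, which encodes the heme oxygenase that frees iron from heme, was at 256, 257 and 474 CPM in control and 951, 985 and 1077 CPM in LPS libraries (log2 fold change 1.61, SE 0.27, edgeR adjusted p = 0.0162). The call was lost without any one of LPS replicate 1 (0.0559), LPS replicate 2 (0.0657), control replicate 1 (0.0683) and control replicate 2 (0.0788). Slc48a1, a heme transporter of the lysosome, rose by 1.21 on the log2 scale (SE 0.11, edgeR adjusted p = 0.00258), and Alas1, the first enzyme of heme synthesis, by 1.19 (SE 0.11, adjusted p = 0.00259). Hp, the hemoglobin-binding plasma protein haptoglobin, rose from 8.75 ± 2.96 to 118 ± 37.6 CPM (SD, n = 3; log2 fold change 3.76, SE 0.37, edgeR adjusted p = 0.00322). The genes called higher thus included one each for heme transport, breakdown and synthesis.

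Of 10 further uptake and release genes, the one called was Slc39a14, encoding the metal importer ZIP14, at 57.6, 58.7 and 68.6 CPM in control and 256, 253 and 209 CPM in LPS libraries (log2 fold change 1.96, SE 0.12, edgeR adjusted p = 0.000683). Its groups lay far apart with little spread. The reductase genes Steap1 (1.51) and Steap2 (1.35), relatives of Steap4, had positive log2 fold changes that did not pass in the group fit (adjusted p = 0.0582 and 0.0729). Under the replicate block they passed (edgeR adjusted p = 0.00801 and 0.00511), as did Scara5 (log2 fold change 1.52) upward and Slc39a8 (-1.04) and Cybrd1 (-1.26) downward.

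Among the genes of iron sensing and chaperones, 1 of 6 was called higher and 1 lower. Aco1 and Ireb2, which encode the proteins that bind the iron-responsive element, had log2 fold changes of -0.06 (SE 0.09) and 0.03 (SE 0.07) and were not called (edgeR adjusted p = 0.704 and 0.827). Fbxl5, whose product directs the degradation of the Ireb2 protein when iron is high, rose from 44.1 ± 3.37 to 76.5 ± 9.76 CPM (SD, n = 3; log2 fold change 0.80, SE 0.12, edgeR adjusted p = 0.012). Its call was lost without any one of LPS replicate 1 (0.053), LPS replicate 2 (0.0538), control replicate 1 (0.0654) and control replicate 2 (0.0754). Ncoa4, the receptor that delivers ferritin to the lysosome, fell from 61.9 ± 2.24 to 42.1 ± 2.60 CPM (log2 fold change -0.56, SE 0.08, edgeR adjusted p = 0.00966), and was not called without control replicate 1 (0.0558) or control replicate 2 (0.053). Any relation of Ncoa4 to the ferritin values was not tested.

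In the mitochondrial list 1 of 6 tested genes was called: Slc25a37, encoding mitoferrin 1, at 60.1, 50.6 and 70.2 CPM in control and 185, 189 and 203 CPM in LPS libraries (log2 fold change 1.67, SE 0.13, edgeR adjusted p = 0.00168). Lcn2, from the siderophore list, encodes the lipocalin that binds bacterial siderophores and so withholds iron from bacteria. It had the largest change of all the other iron and heme genes tested. Lcn2 was at 2.75, 2.21 and 0.62 CPM in control and 1645, 1643 and 264 CPM in LPS libraries (log2 fold change 9.31, SE 1.09, edgeR adjusted p = 0.0055). Like Steap4 and Cp, it was lowest in replicate 3 of each group.

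Of 7 genes listed for hepcidin control, which include the hepcidin copy Hamp2, 4 were tested and Neo1, encoding neogenin, fell from 183 ± 9.49 to 120.3 ± 6.13 CPM (SD, n = 3; log2 fold change -0.61, SE 0.08, edgeR adjusted p = 0.00758), a call lost without control replicate 2 (0.054). Hfe and Erfe were called lower with the replicate block (log2 fold changes -0.54 and -1.27), as were the heme exporter gene Flvcr1 (-0.44) and Lrp1 (-0.57), whereas Blvrb (1.28) and Hpx (1.35) were called higher. Cd163, Ftmt, Ltf, Hamp2, Hjv and Tmprss6 were too low to be tested.

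**Figure D5:**
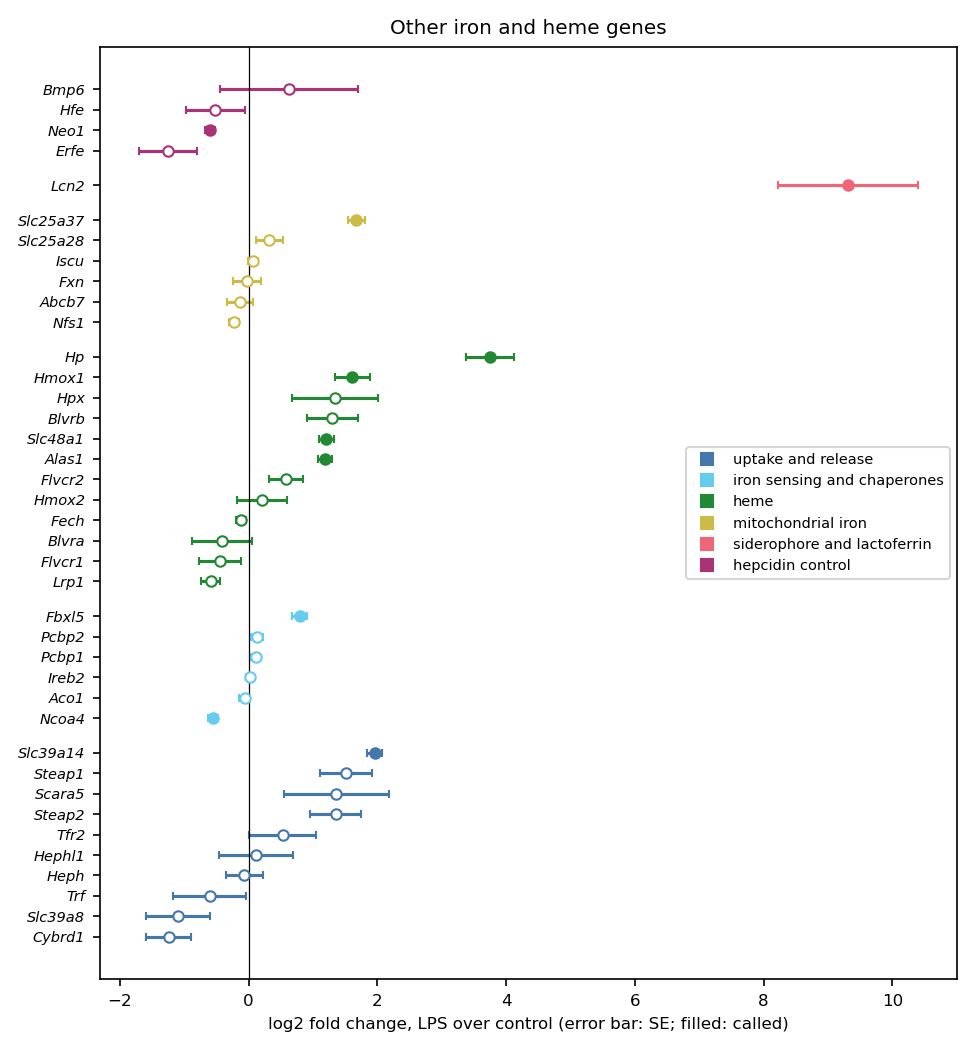
Log2 fold change of LPS over control (horizontal axis) with its SE for 39 tested genes of iron and heme handling, coloured by role and filled where called. The 8 genes called higher and the 2 called lower are spread over all 6 roles, with Lcn2 furthest to the right at 9.31.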

How the data were processed

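Poly(A) RNA libraries of EGCs, 3 control and 3 LPS-treated, were analysed. The authors deposited 1 table of unnormalized gene counts per library. Per the submitters' processing notes, the authors used cutadapt 1.15, Bowtie2 2.3.3.1, STAR 2.5.2b, SAMtools 1.5 and featureCounts 1.5.3 with GRCm38. The kit was stranded, and the strand setting and the handling of reads with several alignments were not given in the sources used here. Library totals were 18775316 to 23664312 counts. Floors (3 counts, 0.124 to 0.167 CPM) cover counting error only.

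Genes were filtered with filterByExpr (minimum count 10, minimum total 15), leaving 15226 of 46603, scaled with TMM factors (0.917 to 1.08) and compared with the edgeR 4.0.16 quasi-likelihood F-test (R 4.3.3), two-sided, group as the single term, called at an adjusted p under 0.05. The SE is the log2 fold change divided by the square root of F. Scripts were tested on simulated data. The ferritin ratio and share were compared by exact permutation tests.

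The members and gene lists were chosen with earlier results of these data known. Named genes were all members, other iron genes that were called, markers, and copies of members; some markers are not reported here. Genes called in other fits, Aco1 and Ireb2 were named after their values were seen.

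Alternatives were relative log expression and upper-quartile factors, library size alone, no filter, at least 10 counts in every library, DESeq2 1.42.0, limma-voom (limma 3.58.1), a replicate block, and each library left out. Deviations from the group means correlated between same-numbered libraries (r = 0.513, 0.334 and 0.613 for replicates 1, 2 and 3), although LPS replicate 2 correlated better with control replicate 1 (r = 0.419). Since r was above 0.1 in all 3 pairs, the numbers were taken to pair the libraries. Control replicate 2 with LPS replicate 1 (r = 0.323) and control replicate 1 with LPS replicate 2 also passed this rule. The rule thus cannot tell the pairing of replicates 1 and 2 from its exchange, and blocked results carry this limit. This pairing comes from the data, since the labels do not say what a number stands for. Blocked results are given where they change a call or move a count.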

Additional observations from a re-analysis of the deposited data

How the results depend on the processing

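No called member or other iron gene changed direction under the alternatives run, and neither did the ferritin ratio or share. Markers were followed only in the main fit and with the replicate block. The counts of members, 5 higher and 3 lower, were within 1.5 times of these under every setting but leaving out a library, where they ranged from 2 to 5 higher and from 1 to 3 lower.

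Counts over all genes moved more. Against 1384 higher and 1022 lower, DESeq2 called 2079 and 1673, the replicate block 2343 and 2273, and the fit without replicate 3 of both groups, chosen after seeing the data, 3498 and 3159. Upper-quartile factors called 1589 lower and library size alone 2054 lower; these scalings shifted the median over all tested genes (log2) to -0.12 and -0.18, from -0.02. Leaving out single libraries gave from 379 to 1964 higher and 112 to 1426 lower.

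Among other iron genes, 2 were called lower in the main fit, 4 with upper-quartile factors, 5 with library size alone, 4 with DESeq2, and 8 (with 13 higher) under the replicate block. Leaving out single libraries gave 6 to 11 higher and 0 to 2 lower, and 15 and 10 without both replicate 3 libraries. The replicate block changed no call of a member. The causes were not tested. With 3 libraries a group, the ferritin permutation tests cannot reach 0.05, and levels under 0.124 CPM cannot be detected.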
